A study of Mus musculus with 10 samples.

Results

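The integrin and laminin genes were taken as every gene of the count table whose symbol names an integrin alpha or beta subunit or a laminin alpha, beta or gamma chain, which gave 37 of the 57185 genes with counts, 26 for integrins and 11 for laminins. Of these 37 genes, 34 had more than 10 counts in at least 6 of the 10 mice and were tested among 13453 genes, and Itgad, Itgae and Lama1 were not. The question was how their RNA differed when RAD was deleted from cardiomyocytes of hearts with established cardiomyopathy. Polyadenylated RNA of the apical part of the ventricles had been sequenced from 5 MLPKO and 5 cRADΔ/Δ-MLPKO male mice, as 1 library per mouse. Mice of both groups lacked muscle LIM protein (MLP, the product of Csrp3), which leads to dilated cardiomyopathy, and carried floxed alleles of RAD (the product of Rrad, a small GTPase that restrains the L-type calcium channel). A tamoxifen dose of 100 mg per kg was given to all 10 mice at an age of 10 weeks. Hearts were taken 1 month later, and the sample labels give an age of 16 weeks. Only cRADΔ/Δ-MLPKO mice carried MYH6-MerCreMer, a tamoxifen-induced recombinase driven by a promoter of cardiomyocytes, so RAD stayed intact in the other cells of these hearts. Because the MLPKO mice carried no recombinase, the effect of the recombinase itself and that of RAD loss cannot be told apart, and no heart with intact MLP was analysed here.

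Integrins are receptors of 1 alpha and 1 beta subunit that span the cell membrane, bind the extracellular matrix or other cells outside, and connect inside to talin, vinculin and the actin cytoskeleton. Laminins are heterotrimers of an alpha, a beta and a gamma chain that form the sheet-like network of basement membranes. In the heart each cardiomyocyte and each capillary is wrapped in a basement membrane, and the integrins of cardiomyocytes sit at costameres, where force passes between the sarcomeres and the matrix. Leukocytes carry integrins of their own, and these are described apart.

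Libraries held 33457406 to 49965101 counts in all. Values are given below as CPM, the count of a gene scaled to a common library size after TMM normalization. Rrad had 140 to 282 CPM in MLPKO and 135 to 202 CPM in cRADΔ/Δ-MLPKO, which overlapped (log2 fold change −0.38, adjusted p = 0.29 in edgeR). Csrp3 was counted in all 10 mice, with 1009 to 3261 CPM in MLPKO and 691 to 1177 CPM in cRADΔ/Δ-MLPKO, which overlapped. Its mean was 1776 ± 917 CPM in MLPKO and 840 ± 197 CPM in cRADΔ/Δ-MLPKO (SD, n = 5). The log2 fold change of Csrp3 was −1.08 (adjusted p = 0.0667 in edgeR). Counts per gene do not show which exons of Rrad or Csrp3 were read. One library stood apart: MLPKO 2 lay at −55.72 on the first principal component of all tested genes (35.3% of the variance), against −22.52 to 24.02 in the other 9. Among the 34 tested integrin and laminin genes, MLPKO 2 had the highest CPM of the 10 mice in 15, and cRADΔ/Δ-MLPKO 3 had it in 8. Of the counts from 1 to 20, 73.7% to 80.3% per library were even numbers, against 51.0% to 56.5% of high counts, and whether a low raw count (such as those of Lamc3, Ilk and genes near the filter of 10) is of fragments or of both reads of a pair is not given in the sources used here. For the called integrin and laminin genes, and for some of the others that MLPKO 2 moved, values without it are given beside the result. Summed CPM of cardiomyocyte markers did not overlap between the genotypes and was lower in cRADΔ/Δ-MLPKO (39210 to 51887 against 52615 to 61255), with Tnnt2 the 1 of 7 markers that passed the test. Summed endothelial markers (810 to 929 against 689 to 770 CPM, Tek called of 6) and mural markers (1091 to 1260 against 852 to 1078 CPM, Rgs5 and Acta2 called of 8) were higher in cRADΔ/Δ-MLPKO without overlap. The mural markers did not all move alike, with 6 higher and 2 lower in sign. Their log2 fold changes ran from −2.17 to 1.24, and 0 were called lower. Summed macrophage markers overlapped (144 to 250 against 119 to 168 CPM), with 7 of 8 at an unadjusted p under 0.05 and 0 called by edgeR, and DESeq2 called 2. Fibroblast markers overlapped as well (2079 to 2976 against 1979 to 2591 CPM, Dpt called of 7). No marker in these 5 lists was at 0 in all mice. The share called by edgeR was 14.3% for cardiomyocyte and fibroblast markers, 16.7% for endothelial and 25.0% for mural markers, against 2.74% of all genes. For macrophage markers 87.5% had an unadjusted p under 0.05, against 21.6% of all genes. DESeq2 called 25.0% of the macrophage markers, against 9.65% of all genes. Summed atrial markers (109 to 2440 CPM in MLPKO and 148 to 438 CPM in cRADΔ/Δ-MLPKO) overlapped and were nearly all Nppa, a natriuretic peptide that strained ventricles also make. The atrial markers Myl7 (0.327 to 4.55 CPM) and Sln (0 to 0.359 CPM) were low beside Nppa, and Sln was at or near 0. The list also holds Myl4, whose values are not given here. In cRADΔ/Δ-MLPKO 1 the atrial sum (438 CPM) exceeded Nppa by more than in any other mouse. In bulk tissue fewer cells of a type and less RNA per cell cannot be told apart, and the part of these shifts in the results that follow was not tested.

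**Figure D1:**
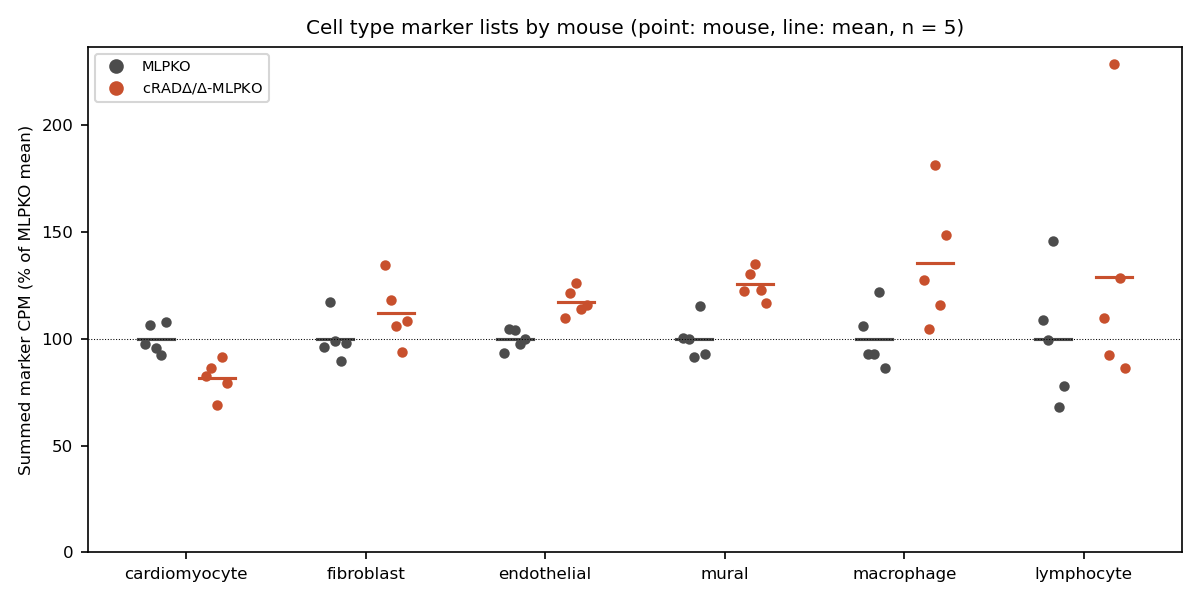
Summed CPM of 6 lists of cell type markers in each mouse, as a percentage of the MLPKO mean of that list (y axis). Each point is a mouse (grey MLPKO, orange cRADΔ/Δ-MLPKO, n = 5 per genotype) and the line is the mean. Cardiomyocyte, endothelial and mural sums do not overlap between the genotypes, and fibroblast, macrophage and lymphocyte sums do.

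The integrin and laminin genes changed in both directions. In cRADΔ/Δ-MLPKO, RNA of the integrin genes Itga9 and Itgb5 and of the laminin gene Lamc3 fell, and RNA of the laminin genes Lama4 and Lamb3 rose (edgeR quasi-likelihood test, Benjamini-Hochberg adjusted p under 0.05 over all 13453 genes, n = 5 mice per genotype). The level in cRADΔ/Δ-MLPKO ran from 0.252 times that of MLPKO for Lamc3 to 1.74 times for Lamb3. The most abundant members, Itgb1 and Lamb2, did not pass the test, with log2 fold changes of −0.08 and 0.01. Of the 34 genes tested, 3 were thus called lower, against 1.8% of all genes, and 2 were called higher, against 0.944% of all genes. In either direction 5 of 34 (14.7%) were called, against 2.74% of all genes. An unadjusted p under 0.05 was found in 16 of 34 (47.1%), against 21.6% of all genes. In 7 of 34 (20.6%) the genotypes did not overlap, against 6.62% of all genes. DESeq2 called 12 of 34 (35.3%), 6 in each direction, against 9.65% of all genes. These 12 hold the 5 genes called by edgeR and in addition Itga1, Itga3, Itga7, Itgam, Itgb2, Lama2 and Lama3. The median log2 fold change of the 34 genes was 0.011, which is also that of all 13453 genes, and 16 of 34 were lower and 18 higher in sign. All 5 called genes had more than 10 counts in every mouse, with 19 counts of Lamc3 as the lowest.

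**Figure D2:**
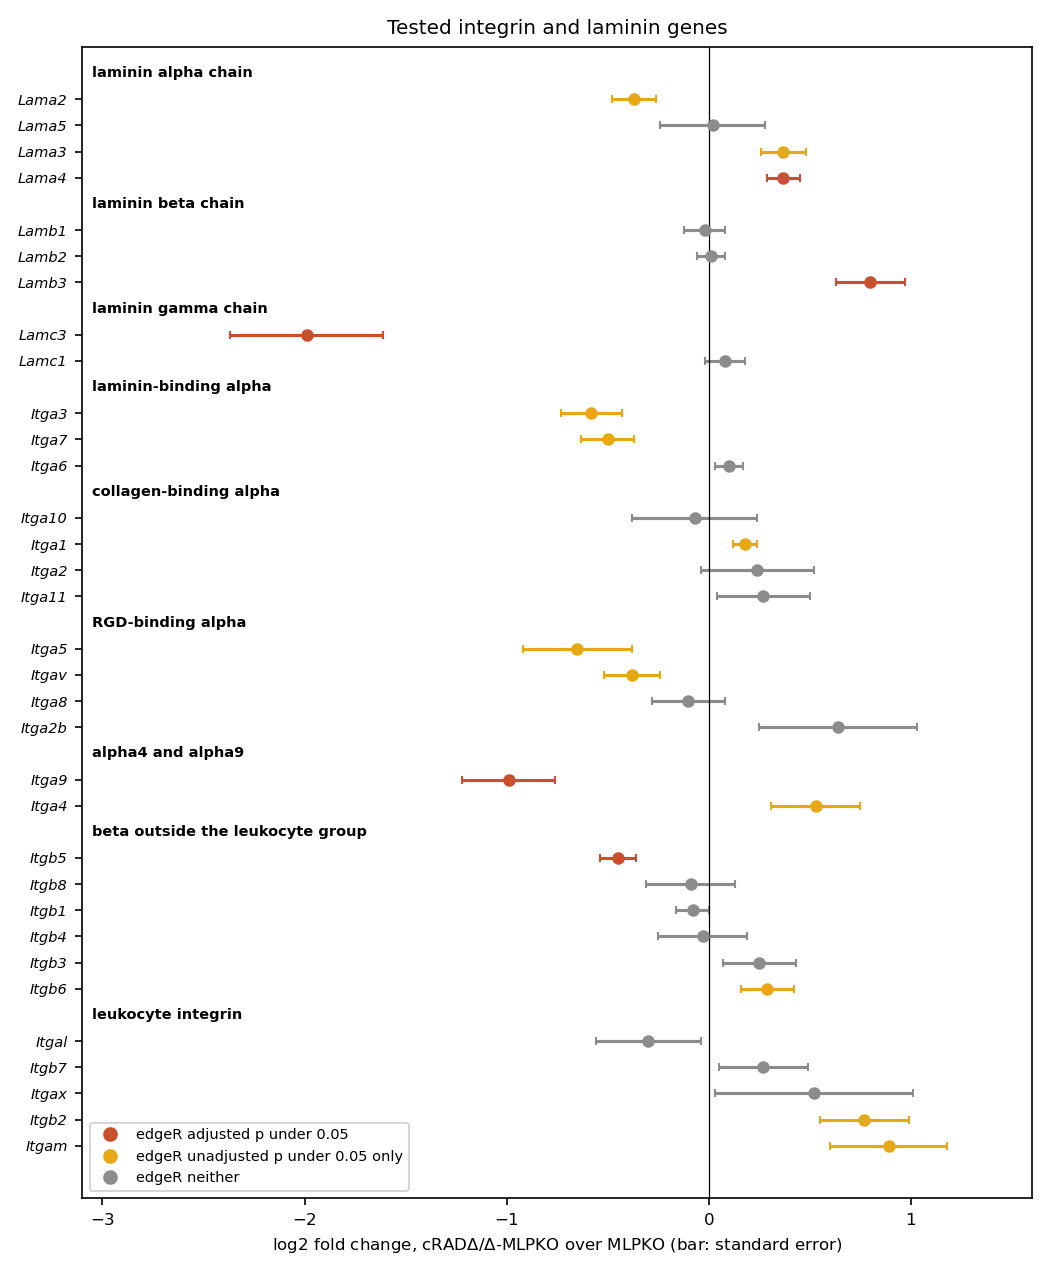
Log2 fold change of cRADΔ/Δ-MLPKO over MLPKO (x axis, bar: standard error) for 33 of the 34 tested integrin and laminin genes, grouped by the role of the subunit or chain. Red points passed an adjusted p under 0.05 (Itga9, Itgb5, Lamc3, Lama4 and Lamb3), amber points an unadjusted p under 0.05 alone, and grey points neither. Members of most groups lie on both sides of 0.

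Per kb of exon, the order of the RNA levels was the same at its top in both genotypes. This depends on the length used. Per kb of the canonical transcript, Itga9 had a larger mean share of the alpha subunits than Itga6 in MLPKO (19.6% against 11.2%). In cRADΔ/Δ-MLPKO it had a smaller share than Itga6 (13.9% against 16.1%). On the scale of CPM per kb of exon, Itgb1 had the highest mean over the 10 mice among the integrin genes (84.6), ahead of Itga7 (32.8), Itgb5 (27.5), Itga9 (23.7), Itga5 (15.1) and Itga6 (7.43). The ranges of Itga7 (22.9 to 50.5), Itgb5 (21.9 to 38.0) and Itga9 (13.1 to 47.5) overlapped, while the lowest mouse for Itgb1 (77.9) lay above all of them. Itga1 (3.6), Itgb6 (2.81), Itgav (2.79) and Itga3 (2.5) came next with ranges that overlapped between neighbours. Among the laminin genes Lamb2 led (71.6, range 62.4 to 75.8), ahead of Lamc1 (25.3, range 21.5 to 32.0), and neither range reached that of a neighbour. The next ranges, of Lama5 (12.1), Lamb1 (11.9) and Lama2 (9.8), overlapped, with 7.0 to 18.1 for Lama5 as the widest. Lama4 (6.15), Lamb3 (1.13), Lama3 (0.394) and Lamc3 (0.318) were lower. Of the 5 genes called, Itgb5 and Itga9 were thus among the 4 most abundant integrin genes. At the bottom of the laminin genes tested were Lamc3, which was called, and Lama3, which edgeR did not call. Lamc3 (0.509) was above Lama3 (0.344) in MLPKO and below it in cRADΔ/Δ-MLPKO (0.128 against 0.444).

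**Figure D3:**
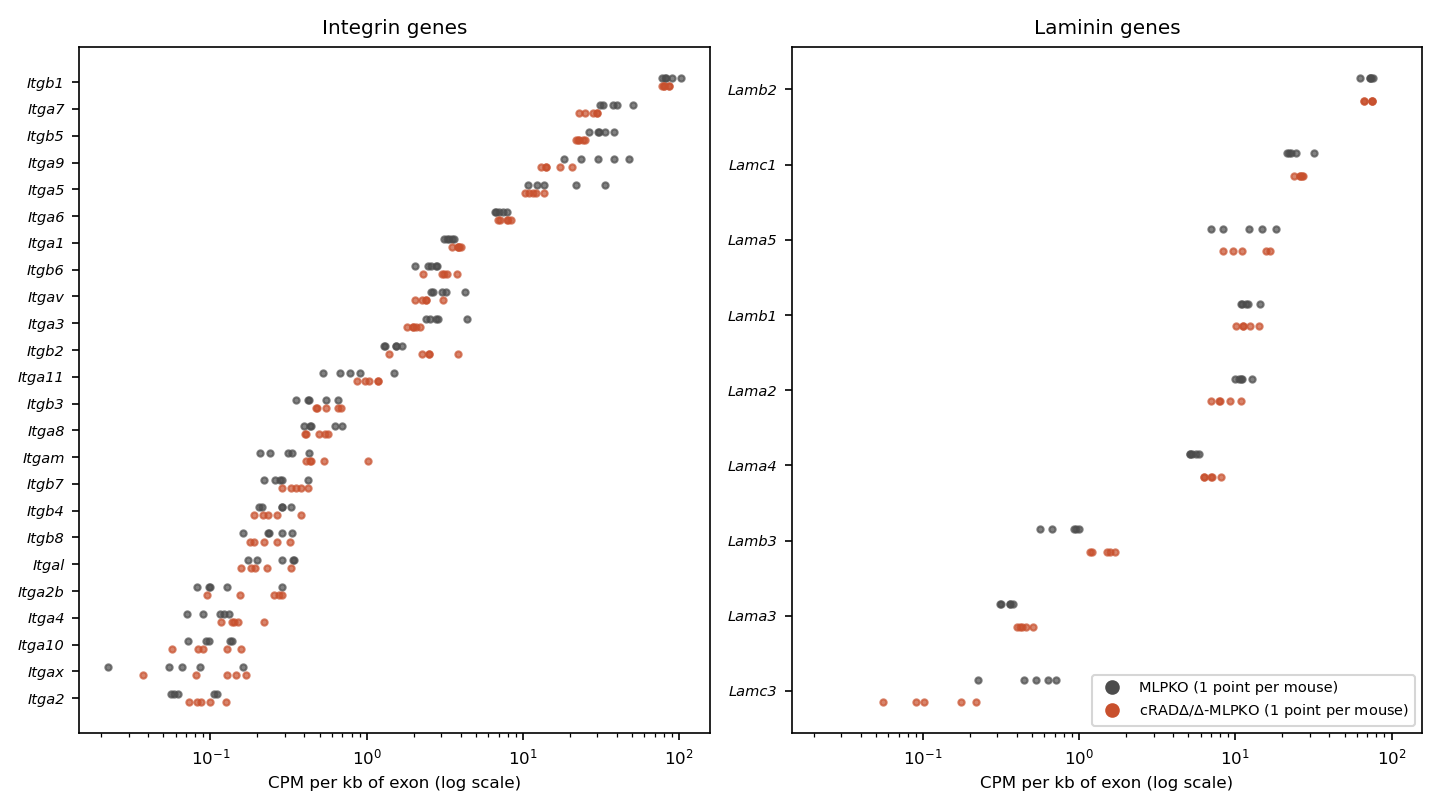
CPM per kb of exon (x axis, log scale) of the 24 integrin genes (left) and 9 of the 10 laminin genes (right) that were tested, ordered by their mean over 10 mice. Each point is a mouse, grey for MLPKO and orange for cRADΔ/Δ-MLPKO. Itgb1 and Lamb2 stand above the others in every mouse, and the grey and orange points of Lamc3 and Lamb3 are apart.

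Lamc3 (chromosome 2, 31777258 to 31839117) encodes a laminin gamma chain that few tissues carry. It had 4.18, 5.96, 4.99, 2.11 and 6.64 CPM in MLPKO 1 to 5 and 1.65, 2.05, 0.519, 0.846 and 0.95 CPM in cRADΔ/Δ-MLPKO 1 to 5. All 5 cRADΔ/Δ-MLPKO mice were below all MLPKO mice, although MLPKO 4 (2.11) and cRADΔ/Δ-MLPKO 2 (2.05) lay next to each other. From 4.78 ± 1.76 to 1.2 ± 0.626 CPM (mean ± SD, n = 5), Lamc3 fell by 1.99 on the log2 scale (standard error, SE, 0.38, adjusted p = 0.0247 in edgeR). The raw counts behind this were 79 to 301 in MLPKO and 19 to 94 in cRADΔ/Δ-MLPKO. Without MLPKO 2 the log2 fold change was −1.90 (adjusted p = 0.0328 in edgeR). The call was lost without MLPKO 1, MLPKO 5, cRADΔ/Δ-MLPKO 3, cRADΔ/Δ-MLPKO 4 or cRADΔ/Δ-MLPKO 5 (adjusted p = 0.0535 to 0.0728 in edgeR).

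Lamc1, the gamma chain of nearly all laminins, had 251, 362, 243, 256 and 277 CPM in MLPKO and 303, 307, 295, 270 and 295 CPM in cRADΔ/Δ-MLPKO. The other MLPKO mice were between 243 and 277 CPM, and MLPKO 2 was above all others. The log2 fold change was 0.08 (SE 0.10, adjusted p = 0.691 in edgeR), and without MLPKO 2 it was 0.20 (adjusted p = 0.0978 in edgeR).

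Among the beta chains of laminin, Lamb3 (chromosome 1, 192890007 to 193027705) rose. Its product belongs to the laminin that anchors epithelia such as the epidermis. Lamb3 had 7.63, 4.6, 7.82, 8.16 and 5.54 CPM in MLPKO and 9.66, 9.97, 12.9, 13.9 and 12.4 CPM in cRADΔ/Δ-MLPKO. Every cRADΔ/Δ-MLPKO mouse was above every MLPKO mouse. The mean went from 6.75 ± 1.58 to 11.8 ± 1.86 CPM (SD, n = 5), a log2 fold change of 0.80 (SE 0.17, adjusted p = 0.0324 in edgeR), and it was 0.69 without MLPKO 2 (adjusted p = 0.0328 in edgeR). The call was lost without MLPKO 1, MLPKO 5 or any 1 of cRADΔ/Δ-MLPKO 2 to 5 (adjusted p = 0.0504 to 0.0807 in edgeR). Lamb3 shares 119 exon bases with G0s2 on the opposite strand, and whether the counting used strand is not given in the sources used here. G0s2 had a mean of 17.5 CPM in MLPKO and 23.0 CPM in cRADΔ/Δ-MLPKO (log2 fold change 0.40, adjusted p = 0.237 in edgeR).

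Lamb2 and Lamb1, the beta chains of cardiac and vascular basement membranes, had log2 fold changes near 0. Lamb2 had 462, 380, 452, 440 and 443 CPM in MLPKO and 408, 455, 407, 459 and 457 CPM in cRADΔ/Δ-MLPKO, and the genotypes overlapped (log2 fold change 0.01, SE 0.07, adjusted p = 0.973 in edgeR). Lamb1 had 125, 153, 116, 118 and 128 CPM in MLPKO and 133, 152, 120, 108 and 119 CPM in cRADΔ/Δ-MLPKO, again with overlap (log2 fold change −0.02, SE 0.10, adjusted p = 0.948 in edgeR). Its exons share 303 bases with Dld on the opposite strand, which had a mean of 373 CPM in MLPKO and 413 CPM in cRADΔ/Δ-MLPKO. The share of Lamb3 among the beta chains per kb of exon was higher in every cRADΔ/Δ-MLPKO mouse than in any MLPKO mouse, at 1.69% ± 0.279 against 0.969% ± 0.2 (SD, n = 5). Lamb2 made up 84.8% ± 2.25 and 84.4% ± 1.56, and Lamb1 14.3% ± 2.41 and 13.9% ± 1.77 (SD, n = 5), both with overlap.

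The alpha chains of laminin moved in different directions. Lama4 (chromosome 10, 38841141 to 38998403), the alpha chain of endothelial and muscle basement membranes, had 82.4, 91.6, 80.0, 80.3 and 87.3 CPM in MLPKO and 112, 127, 99.5, 98.3 and 109 CPM in cRADΔ/Δ-MLPKO. The highest MLPKO value was below the lowest value of cRADΔ/Δ-MLPKO. Lama4 rose from 84.3 ± 4.98 to 109 ± 11.4 CPM (SD, n = 5), a log2 fold change of 0.37 (SE 0.08, adjusted p = 0.0295 in edgeR). The exons of Lama4 share 806 bases with Fam229b on the opposite strand, which had a mean of 2.03 CPM in MLPKO and 1.78 CPM in cRADΔ/Δ-MLPKO. Without MLPKO 2 the log2 fold change was 0.40 (adjusted p = 0.0259 in edgeR). The call was lost without MLPKO 1, MLPKO 3, MLPKO 5, cRADΔ/Δ-MLPKO 1 or cRADΔ/Δ-MLPKO 5 (adjusted p = 0.0538 to 0.0739 in edgeR). Mean endothelial and mural marker sums in cRADΔ/Δ-MLPKO were 117% and 126% of the MLPKO means, against 129% for Lama4, and their part in the result was not tested.

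Lama3, the alpha chain of epithelial laminin, had 4.0, 4.63, 4.05, 4.83 and 4.63 CPM in MLPKO and 5.15, 6.58, 5.57, 5.39 and 5.93 CPM in cRADΔ/Δ-MLPKO. The genotypes did not overlap, and the log2 fold change of 0.37 (SE 0.11) had an edgeR adjusted p of 0.0774, which missed the threshold, and a DESeq2 adjusted p of 0.0244, which did not. Lama2, whose loss causes a congenital muscular dystrophy, had 195, 229, 177, 189 and 194 CPM in MLPKO and 194, 164, 124, 140 and 142 CPM in cRADΔ/Δ-MLPKO. The mice cRADΔ/Δ-MLPKO 2 to 5 were below all MLPKO mice, and cRADΔ/Δ-MLPKO 1 lay within them. The log2 fold change was −0.37 (SE 0.11, adjusted p = 0.0945 in edgeR, DESeq2 adjusted p = 0.0306), and without cRADΔ/Δ-MLPKO 1 it was −0.47 (adjusted p = 0.0406 in edgeR). Without MLPKO 2, its highest mouse, it was −0.31 (adjusted p = 0.143 in edgeR).

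Lama5, the alpha chain of many adult basement membranes, varied widely between mice of the same genotype. It had 140, 95.4, 207, 168 and 80.1 CPM in MLPKO and 178, 95.6, 110, 125 and 189 CPM in cRADΔ/Δ-MLPKO. Low and high mice occurred in both genotypes (log2 fold change 0.02, SE 0.26, adjusted p = 0.98 in edgeR). Lama1, the alpha chain of the early embryo, was under the filter with raw counts of 0 to 2 for MLPKO mice and 2 to 4 for cRADΔ/Δ-MLPKO, at or near the floor of 3 counts, and no fold is given. Per kb of exon, Lama5 (40.8% ± 10.8 in MLPKO and 42.7% ± 7.23 in cRADΔ/Δ-MLPKO), Lama2 (39% ± 7.34 and 30.6% ± 3.74) and Lama4 (19% ± 3.32 and 25.1% ± 4.02) made up nearly all alpha chain RNA (SD, n = 5), and each overlapped between the genotypes. This order depends on the length used, since per kb of the canonical transcript Lama2 led in MLPKO (43.7%), ahead of Lama4 (30.0%) and Lama5 (25.5%).

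**Figure D4:**
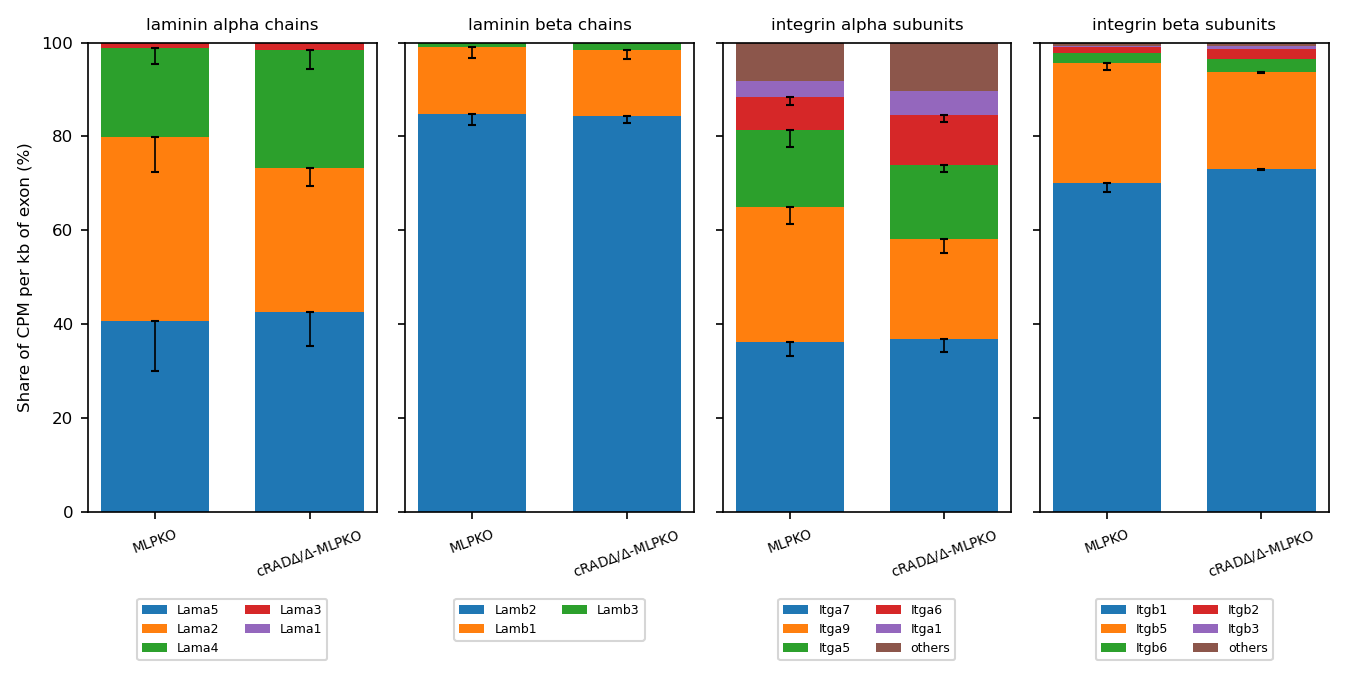
Mean share of each laminin alpha and beta chain and integrin subunit within its class, in percent of CPM per kb of exon (y axis), in MLPKO and cRADΔ/Δ-MLPKO (n = 5 each). A bar drawn downward from the top of a segment is the SD of that segment's share, drawn for the larger segments only. Lamb2, Itga7 and Itgb1 lead their classes in both genotypes, and the segment of Itgb5 is smaller in cRADΔ/Δ-MLPKO (20.7%) than in MLPKO (25.6%).

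Of the integrin genes, Itga9 (chromosome 9, 118435722 to 118730072) showed the largest called difference. Its product pairs with that of Itgb1 and binds tenascin C and VCAM among other ligands. Itga9 had 233, 367, 183, 141 and 295 CPM in MLPKO and 160, 133, 109, 101 and 108 CPM in cRADΔ/Δ-MLPKO. MLPKO 4 lay below cRADΔ/Δ-MLPKO 1, so the genotypes overlapped by that pair of mice, and the other 4 MLPKO mice were above all of cRADΔ/Δ-MLPKO. The mean was 244 ± 89.9 CPM in MLPKO and 122 ± 24.4 CPM in cRADΔ/Δ-MLPKO (SD, n = 5), and Itga9 fell by 0.99 on the log2 scale (SE 0.23, adjusted p = 0.0461 in edgeR). Without MLPKO 2, its highest mouse, the log2 fold change was −0.80 and the call was lost (adjusted p = 0.0558 in edgeR). It was also lost with limma-voom (adjusted p = 0.0529) and without MLPKO 1, MLPKO 5 or any 1 of cRADΔ/Δ-MLPKO 2 to 5 (adjusted p = 0.0749 to 0.111 in edgeR). Nppa had 955, 2435, 230, 106 and 1784 CPM in MLPKO and 413, 429, 179, 146 and 164 CPM in cRADΔ/Δ-MLPKO (log2 fold change −2.05, adjusted p = 0.124 in edgeR). Ordered by Nppa or by Itga9, the MLPKO mice stood in the same order, as did those of cRADΔ/Δ-MLPKO except that mice 1 and 2 changed places, and the part of this in the result for Itga9 was not tested.

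Itga4, the other member of the same branch of alpha subunits and best known from leukocytes, had 2.03, 1.49, 2.21, 1.92 and 1.19 CPM in MLPKO and 2.51, 2.37, 3.66, 1.94 and 2.31 CPM in cRADΔ/Δ-MLPKO. The genotypes overlapped, and the log2 fold change of 0.53 (SE 0.22) missed the threshold (adjusted p = 0.19 in edgeR). Itga4 shares 3481 exon bases with Cerkl on the opposite strand, which had 0.158 and 0.183 CPM on average in MLPKO and cRADΔ/Δ-MLPKO.

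Itgb5 (chromosome 16, 33649988 to 33771137), which pairs with the product of Itgav to form a receptor for vitronectin, had 236, 269, 213, 187 and 217 CPM in MLPKO and 177, 155, 172, 159 and 161 CPM in cRADΔ/Δ-MLPKO. No mouse of cRADΔ/Δ-MLPKO reached the lowest MLPKO mouse. Itgb5 fell from 224 ± 30.4 to 165 ± 9.23 CPM (SD, n = 5), by 0.45 on the log2 scale (SE 0.09, adjusted p = 0.0277 in edgeR), and by 0.37 without MLPKO 2 (adjusted p = 0.0274 in edgeR). The call was lost without MLPKO 1, MLPKO 5 or any 1 of cRADΔ/Δ-MLPKO 2 to 5 (adjusted p = 0.0572 to 0.0744 in edgeR). Its share of the beta subunits per kb of exon was 23.4% to 27.4% in the MLPKO mice and 20.6% to 21.1% in the cRADΔ/Δ-MLPKO mice.

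Itgb1, the beta subunit shared by most matrix receptors, had 496, 613, 465, 486 and 538 CPM in MLPKO and 516, 465, 515, 476 and 479 CPM in cRADΔ/Δ-MLPKO. The genotypes overlapped, with MLPKO 2 the highest (log2 fold change −0.08, SE 0.08, adjusted p = 0.579 in edgeR). Without MLPKO 2 the log2 fold change was −0.02 (adjusted p = 0.905 in edgeR). Its share of the beta subunits per kb was 70.1% ± 1.81 in MLPKO and 73.0% ± 0.188 in cRADΔ/Δ-MLPKO (SD, n = 5), without overlap. Since shares of 1 class add up to a whole, the shares of Itgb1 and Itgb5 are not independent of each other.

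Itgb6, which with Itgav makes a receptor that activates latent TGF-beta in epithelia, had 19, 18.1, 20.6, 20.3 and 14.9 CPM in MLPKO and 22.4, 27.8, 16.7, 23.8 and 22.8 CPM in cRADΔ/Δ-MLPKO. All others of cRADΔ/Δ-MLPKO were above all MLPKO mice and cRADΔ/Δ-MLPKO 3 lay within them (log2 fold change 0.29, SE 0.13, adjusted p = 0.218 in edgeR). Itgb3 (2.35 to 4.53 CPM over the 10 mice), Itgb4 (1.38 to 2.73 CPM) and Itgb8 (1.82 to 3.74 CPM) overlapped between the genotypes, with log2 fold changes of 0.25, −0.03 and −0.09 and edgeR adjusted p of 0.476, 0.948 and 0.864.

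The 3 laminin-binding alpha subunits differed among themselves. Itga7 (chromosome 10, 128769621 to 128794169), the main laminin receptor of adult cardiac and skeletal muscle, had 315, 419, 269, 258 and 331 CPM in MLPKO and 249, 233, 190, 246 and 208 CPM in cRADΔ/Δ-MLPKO. All cRADΔ/Δ-MLPKO mice were below all MLPKO mice, by 249 against 258 CPM at the nearest. The log2 fold change of −0.50 (SE 0.13) missed the threshold (adjusted p = 0.0597 in edgeR, DESeq2 adjusted p = 0.00517), and without MLPKO 4 it passed at −0.57 (adjusted p = 0.0291 in edgeR), while without MLPKO 2 it was −0.38 (adjusted p = 0.0631 in edgeR). Itga3, found in epithelia and vessels, had 13.9, 25.5, 16.1, 16.6 and 14.9 CPM in MLPKO and 11.5, 11.6, 12.1, 12.7 and 10.5 CPM in cRADΔ/Δ-MLPKO. These did not overlap either, and MLPKO 2 was far above the other MLPKO mice. The log2 fold change was −0.58 (SE 0.15, adjusted p = 0.0597 in edgeR, DESeq2 adjusted p = 0.00635), and without MLPKO 2 it was −0.40 and passed (adjusted p = 0.0308 in edgeR). Itga6, the laminin receptor of endothelium and epithelium, ranged from 75.3 to 90.9 CPM in MLPKO and from 78.7 to 95.5 CPM in cRADΔ/Δ-MLPKO (log2 fold change 0.10, adjusted p = 0.471 in edgeR). Summed cardiomyocyte markers were 81.7% of their MLPKO mean in cRADΔ/Δ-MLPKO, against 70.7% for Itga7, 73.4% for Itgb5 and 50.2% for Itga9, and the part of the former in the latter was not tested.

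**Figure D5:**
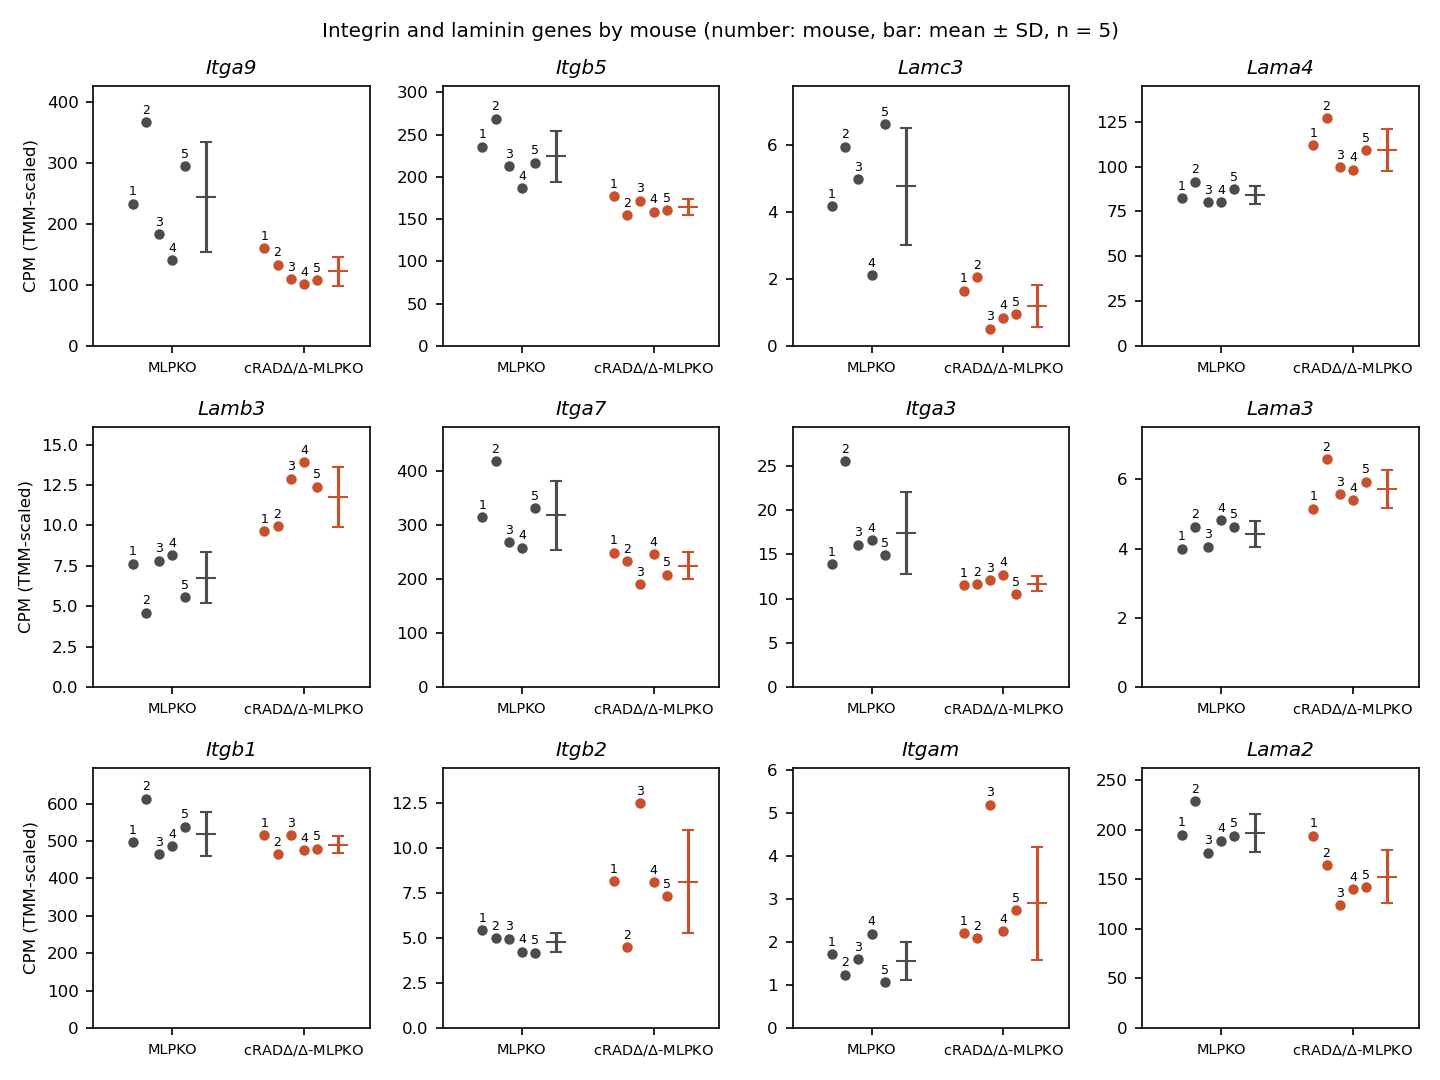
CPM on the TMM scale (y axes, from 0) of 12 integrin and laminin genes in each mouse, grey for MLPKO and orange for cRADΔ/Δ-MLPKO, with the mouse number above each point and the mean ± SD beside it (n = 5). Itgb5, Lamc3, Itga7 and Itga3 are lower and Lama4, Lamb3 and Lama3 higher in cRADΔ/Δ-MLPKO without overlap, Itga9, Itgb1, Itgb2, Itgam and Lama2 overlap, and MLPKO 2 is the highest mouse in 6 of the 12 panels.

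Of the 4 alpha subunits of receptors for fibronectin and other RGD ligands, 3 were lower in sign and 0 were called by edgeR (2.74% of all genes), 2 had an unadjusted p under 0.05 (50%, against 21.6% of all genes) and 0 were called by DESeq2 (9.65% of all genes). Itga5, the fibronectin receptor, had 72.5, 178, 65.8, 57.7 and 117 CPM in MLPKO and 58.0, 72.9, 55.0, 64.5 and 61.8 CPM in cRADΔ/Δ-MLPKO. MLPKO 2 and MLPKO 5, which also had the most Nppa, were above all other mice, and the rest overlapped (log2 fold change −0.65, SE 0.27, adjusted p = 0.185 in edgeR). Without MLPKO 2 the difference was smaller by more than 1.5 times, at a log2 fold change of −0.32 (adjusted p = 0.316 in edgeR). Itgav had 37.6, 52.4, 32.6, 31.8 and 39.9 CPM in MLPKO and 37.7, 27.9, 29.4, 25.2 and 29.4 CPM in cRADΔ/Δ-MLPKO. The mice cRADΔ/Δ-MLPKO 2 to 5 were below all MLPKO mice and cRADΔ/Δ-MLPKO 1 was not (log2 fold change −0.38, SE 0.14, adjusted p = 0.15 in edgeR, and −0.25 without MLPKO 2). Itga8 (4.3 to 7.54 CPM over the 10 mice) and the platelet subunit Itga2b (0.671 to 2.35 CPM) overlapped, with log2 fold changes of −0.10 and 0.64 (adjusted p = 0.789 and 0.378 in edgeR).

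Collagen-binding alpha subunits were led by Itga1, the receptor for basement membrane collagen on vascular cells, with 74.5, 70.1, 71.7, 76.8 and 66.8 CPM in MLPKO and 81.5, 86.1, 83.2, 75.5 and 82.2 CPM in cRADΔ/Δ-MLPKO. All cRADΔ/Δ-MLPKO mice but number 4 were above all MLPKO mice. The log2 fold change of 0.18 (SE 0.06) missed the threshold (adjusted p = 0.0917 in edgeR, DESeq2 adjusted p = 0.0368). Itga1 shares 2180 exon bases with Mocs2 on the opposite strand, which had a log2 fold change of 0.28 (adjusted p = 0.0559 in edgeR). Itga11, the receptor for fibrillar collagen on fibroblasts, ranged from 3.24 to 9.16 CPM, Itga2 from 0.397 to 0.898 CPM and Itga10 from 0.294 to 0.819 CPM over the 10 mice. All 3 overlapped, with log2 fold changes of 0.27, 0.24 and −0.07 (adjusted p = 0.543, 0.667 and 0.923 in edgeR).

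The leukocyte integrins were low, and 4 of the 5 tested were higher in sign in cRADΔ/Δ-MLPKO, with 0 called by edgeR (2.74% of all genes), 2 at an unadjusted p under 0.05 (40%, against 21.6% of all genes) and 2 called by DESeq2 (40%, against 9.65%). Itgb2, the beta subunit that leukocytes share, had 5.43, 4.98, 4.97, 4.24 and 4.19 CPM in MLPKO and 8.17, 4.51, 12.5, 8.11 and 7.33 CPM in cRADΔ/Δ-MLPKO. All cRADΔ/Δ-MLPKO mice but number 2 were above all MLPKO mice, and cRADΔ/Δ-MLPKO 3 was the highest. The log2 fold change was 0.77 (SE 0.22, adjusted p = 0.0724 in edgeR, DESeq2 adjusted p = 0.0113), and without cRADΔ/Δ-MLPKO 2 it was 0.92 (adjusted p = 0.0379 in edgeR). Itgam, its partner on monocytes, macrophages and neutrophils, had 1.71, 1.24, 1.6, 2.19 and 1.06 CPM in MLPKO and 2.21, 2.09, 5.19, 2.25 and 2.74 CPM in cRADΔ/Δ-MLPKO. The genotypes overlapped only by MLPKO 4 and cRADΔ/Δ-MLPKO 2 (log2 fold change 0.89, SE 0.29, adjusted p = 0.106 in edgeR, DESeq2 adjusted p = 0.0338). Without cRADΔ/Δ-MLPKO 3 the log2 fold change of Itgam was 0.58 (adjusted p = 0.196 in edgeR), a value more than 1.5 times smaller, and that of Itgb2 was 0.57 (adjusted p = 0.13 in edgeR). In that mouse the macrophage marker sum was also the highest of the 10, at 250 CPM.

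Other leukocyte subunits showed no called difference. Itgal, the lymphocyte partner of Itgb2, had 2.27, 1.9, 2.21, 1.31 and 1.15 CPM in MLPKO and 1.2, 1.26, 1.04, 1.51 and 2.15 CPM in cRADΔ/Δ-MLPKO, with overlap (log2 fold change −0.30, adjusted p = 0.548 in edgeR). Itgax, the partner on dendritic cells and some macrophages, had 0.786, 0.317, 0.415, 0.107 and 0.265 CPM in MLPKO and 0.18, 0.392, 0.71, 0.623 and 0.814 CPM in cRADΔ/Δ-MLPKO (log2 fold change 0.52, adjusted p = 0.585 in edgeR), from 4 to 36 raw counts. Itgb7, a beta subunit of lymphocytes that home to the gut, had 0.809, 0.634, 1.22, 0.747 and 0.838 CPM in MLPKO and 0.838, 1.11, 1.23, 1.02 and 0.95 CPM in cRADΔ/Δ-MLPKO (log2 fold change 0.27, adjusted p = 0.526 in edgeR). For Itgae the raw counts were 2 to 18 (MLPKO) and 6 to 18 (cRADΔ/Δ-MLPKO), and Itgad had 7 to 15 in MLPKO and 2 to 10 in cRADΔ/Δ-MLPKO, both under the filter. Itgam shares 3450 exon bases with Gm49368 on the same strand, which had 0.0132 and 0.0224 CPM on average, and how such reads were divided is not given in the sources used here. Summed lymphocyte markers (1.84 to 3.93 CPM in MLPKO and 2.33 to 6.17 CPM in cRADΔ/Δ-MLPKO) and neutrophil markers (1.33 to 2.29 and 1.48 to 4.82 CPM) overlapped.

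An integrin needs both subunits, so the levels of partners were set side by side per kb of exon for the 24 alpha and beta pairs known to form. In the 12 pairs with Itgb1 the beta subunit was above its alpha partner in all 10 mice, by 2.27 times for Itga7 and 2.76 times for Itga9 in MLPKO and by 3.02 and 5.19 times in cRADΔ/Δ-MLPKO. For the fibronectin receptor the ratio of Itgb1 to Itga5 was 4.72 in MLPKO and 7.0 in cRADΔ/Δ-MLPKO. Itgb5 was above Itgav in every mouse, by 10.1 times in MLPKO and 9.62 times in cRADΔ/Δ-MLPKO, while Itgb3 and Itgb8 were below Itgav in every mouse and Itgb6 was above it in 5 of 10. The last of these depends on the exon lengths. In CPM without length Itgb6 was below Itgav in every mouse, by 27.8 against 27.9 CPM at the nearest (cRADΔ/Δ-MLPKO 2). Itgb4 stood at 0.0367 of the level of Itga6 in MLPKO and 0.0334 in cRADΔ/Δ-MLPKO. Among the leukocyte pairs Itgb2 was above Itgal, Itgam, Itgax and Itgad in every mouse, with a ratio to Itgam of 4.82 in MLPKO and 4.43 in cRADΔ/Δ-MLPKO. These are ratios of RNA in the whole tissue, in which partners may lie in different cells.

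Promoter sequence was printed for the called genes that have a RefSeq promoter window near the start of their canonical GENCODE transcript and for the members whose window holds a binding motif of SRF, a factor of muscle and cytoskeletal genes. Of the 37 genes, 22 had a window, taken as the 250 bases before the start on GRCm39. GATAA, the GATA factor core, was found in 2 of the 22 windows (9.09%), against 22.6% of all 32851 windows. CAGAC, the SMAD element, was found in 13 (59.1%), against 42.2% of all windows. The SRF CArG box was found in 2 (9.09%), against 1.47% of all windows. Both strands were searched for each, the motifs do not overlap in the printed windows, and a match is a description of letters and not a site of binding. The windows are given 5′ to 3′ without the bases that lie inside the annotated transcript, with motif letters in capitals. They are Itgb5 at chr16:33649785-33649987 on the plus strand (no match), Lamb3 at chr1:192984052-192984300 on the plus strand (CAGAC 2 times, read on the other strand), Lama2 at chr10:27492939-27493188 on the minus strand (1 match to CAGAC, 1 to GATAA and, 39 bases before the start, the CArG box) and Itgb6 at chr2:60504056-60504287 on the minus strand (the CArG box, 50 bases before the start).
Itgb5: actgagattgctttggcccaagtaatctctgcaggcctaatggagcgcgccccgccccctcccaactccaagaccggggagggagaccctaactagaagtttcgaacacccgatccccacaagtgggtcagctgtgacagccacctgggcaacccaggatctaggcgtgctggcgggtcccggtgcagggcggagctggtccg
Lamb3: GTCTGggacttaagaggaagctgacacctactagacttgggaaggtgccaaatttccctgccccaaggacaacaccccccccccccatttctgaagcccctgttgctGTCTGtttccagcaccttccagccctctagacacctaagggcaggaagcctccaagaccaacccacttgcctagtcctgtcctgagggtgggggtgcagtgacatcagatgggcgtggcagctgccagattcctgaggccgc
Lama2: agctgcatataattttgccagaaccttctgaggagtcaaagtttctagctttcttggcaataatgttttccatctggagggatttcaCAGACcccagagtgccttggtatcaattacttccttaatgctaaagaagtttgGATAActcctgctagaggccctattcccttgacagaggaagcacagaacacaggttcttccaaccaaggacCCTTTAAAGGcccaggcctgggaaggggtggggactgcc
Itgb6: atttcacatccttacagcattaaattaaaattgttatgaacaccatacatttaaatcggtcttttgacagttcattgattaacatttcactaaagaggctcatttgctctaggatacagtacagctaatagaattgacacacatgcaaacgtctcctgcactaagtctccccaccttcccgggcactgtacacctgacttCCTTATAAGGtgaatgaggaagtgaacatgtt
In cRADΔ/Δ-MLPKO the RNA of the CArG-bearing genes had log2 fold changes of −0.37 for Lama2 and 0.29 for Itgb6, neither of which passed the edgeR test.

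Genes that work with integrins and laminins were taken from 3 lists. Of the integrin adhesion complex, which links integrins to actin and to kinases, 30 of 32 genes were tested, with 1 lower, 0 higher and a median log2 fold change of −0.053, so 3.33% were called, against 2.74% of all genes. The 1 called gene was Vcl, vinculin, with 114 ± 11.3 CPM in MLPKO and 83.6 ± 6.97 CPM in cRADΔ/Δ-MLPKO (SD, n = 5), which fell by 0.45 on the log2 scale (SE 0.08, adjusted p = 0.0216 in edgeR) without overlap (102 to 130 against 74.6 to 90.5 CPM). The highest adjusted p with a mouse left out was 0.0627 for Vcl, without MLPKO 5. Tln1, talin, had a log2 fold change of −0.48 (adjusted p = 0.107 in edgeR, DESeq2 adjusted p = 0.0298) and overlapped. Ilk, the integrin-linked kinase, had only 2 to 8 raw counts per mouse and was under the filter. Its exons share 2269 bases with Taf10 on the opposite strand, which had a mean of 25.8 CPM in MLPKO and 25.7 CPM in cRADΔ/Δ-MLPKO, so the level of Ilk is uncertain.

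All 16 partners of laminin in the basement membrane were tested, with 1 lower, 1 higher and a median of −0.095, so 12.5% were called, against 2.74% of all genes. DESeq2 called 6 of the 16 (37.5%, against 9.65% of all genes), 3 in each direction. Col4a3, a collagen IV chain, fell from 10.7 ± 2.8 to 5.85 ± 1.35 CPM (SD, n = 5), a log2 fold change of −0.87 (SE 0.19, adjusted p = 0.0369 in edgeR) without overlap (8.67 to 15.1 against 4.77 to 8.14 CPM). Bcam, a receptor that binds Lama5, rose from 173 ± 18.2 to 229 ± 29.4 CPM (SD, n = 5), a log2 fold change of 0.41 (SE 0.10, adjusted p = 0.0496 in edgeR) without overlap (150 to 193 against 194 to 273 CPM). The call of Bcam was lost with limma-voom (adjusted p = 0.0506) and with RLE normalization in edgeR (adjusted p = 0.0517), and that of Col4a3 with the mouse number as a block (adjusted p = 0.06 in edgeR). With a mouse left out the adjusted p reached 0.0934 for Col4a3 and 0.112 for Bcam. The main collagen IV chains Col4a1 and Col4a2 overlapped, with log2 fold changes of −0.24 and −0.33 (adjusted p = 0.531 and 0.354 in edgeR). Col4a5 did not overlap, with a log2 fold change of −0.49 (adjusted p = 0.0667 in edgeR, DESeq2 adjusted p = 0.00997). Col4a4 overlapped at −0.51 (adjusted p = 0.0731 in edgeR, DESeq2 adjusted p = 0.0144), as did Col4a6 at −0.64 (adjusted p = 0.277 in edgeR).

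Integrin ligands outside the collagens and laminins numbered 22, of which 20 were tested and 0 were called by edgeR, with a median of −0.084, 8 at an unadjusted p under 0.05 (40%, against 21.6% of all genes) and 5 called by DESeq2 (25%, against 9.65%). The nearest to the threshold was Nrg1, with 0.64 to 4.04 CPM in MLPKO and 0.219 to 0.769 CPM in cRADΔ/Δ-MLPKO (log2 fold change −2.13, SE 0.53, adjusted p = 0.0551 in edgeR). Fn1, fibronectin and the ligand of Itga5, had a log2 fold change of 0.63 (adjusted p = 0.164 in edgeR), Vtn, vitronectin and the ligand of Itgb5, 0.47 (adjusted p = 0.0692 in edgeR), and Tnc, tenascin C and a ligand of Itga9, 0.87 (adjusted p = 0.39 in edgeR).

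The calls were close to the threshold. Without MLPKO 1, MLPKO 5 or cRADΔ/Δ-MLPKO 5, 0 of the 34 integrin and laminin genes were called by edgeR, and the count over all genes was 107, 47 and 50 in place of 369. Without cRADΔ/Δ-MLPKO 3 or cRADΔ/Δ-MLPKO 4, Lama4 was the 1 call that remained, and without cRADΔ/Δ-MLPKO 2 the calls were Lama4, Lamc3 and Itgb2. Over the 10 fits that each left out a mouse, Lamc3 and Lama4 were called in 5, Itgb5 and Lamb3 in 4 and Itga9 in 3, with the highest adjusted p at 0.0728, 0.0739, 0.0744, 0.0807 and 0.111, and all 5 kept their direction in every fit. The log2 fold changes in these fits were −2.27 to −1.79 for Lamc3, 0.32 to 0.41 for Lama4, −0.51 to −0.37 for Itgb5, 0.69 to 0.88 for Lamb3 and −1.14 to −0.80 for Itga9.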

How the data were processed

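The authors checked reads with FastQC, mapped them with STAR (GRCm39) and assigned them to genes with featureCounts. The deposited values are raw counts per gene and mouse. Versions, annotation release and strand setting are not given in the sources used here. Of 60676 rows, 3491 held no value.

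A gene was tested if its count passed 10 in 6 or more mice and its symbol was not of the Gm or Rik kind, which left 13453. These kinds are Gm followed by digits alone, and names that end in Rik or in Rik and digits. The test was edgeR's quasi-likelihood test (version 4.0.16, R 4.3.3, TMM, genotype as the only term) with Benjamini-Hochberg adjustment at 0.05. CPM per kb used exon-union lengths of GENCODE mouse release 39. Scripts were tested on simulated data. Alternatives were DESeq2 1.42.0, limma-voom (limma 3.58.1), RLE normalization, no filter, Gm and Rik genes kept, a replicate block and leaving out each mouse. Promoter windows came from a RefSeq table on GRCm39.

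The values of 1 tested gene are not reported here, although it is included in the counts. The members and lists were chosen with earlier results of these data known. Values per mouse are given for members called or at an unadjusted p under 0.05, the 4 integrin and 4 laminin genes highest per kb, and tested leukocyte integrins, and for pathway genes the called ones were named. Tln1, Ilk, Col4a1, Col4a2, Col4a4, Col4a5, Col4a6, Nrg1, Fn1, Vtn, Tnc and Nppa were named outside this rule, after their values were seen. Samples were grouped by the labels, which do not say more on litters or batches. The p-values set the difference between genotypes against the spread between these mice.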

Additional observations from a re-analysis of the deposited data

Results flagged for a closer look

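In 68 groups of 5 mice (34 tested genes in 2 genotypes), the gap between the highest or lowest mouse and its neighbour, as a share of the whole range, was set against the Dixon critical value of 0.71, which chance passes in about 1 in 20 groups. It was passed in 5 groups, 4 of them by MLPKO 2. Itga2b in MLPKO 2 had 2.35 CPM against 1.04 in the next mouse (gap 0.78). Itga3 in MLPKO 2 had 25.5 CPM against 16.6 (gap 0.767). Lamc1 in MLPKO 2 had 362 CPM against 277 (gap 0.714). Lamb2 in MLPKO 2 was the lowest, with 380 CPM against 440 (gap 0.732). Itgam in cRADΔ/Δ-MLPKO 3 had 5.19 CPM against 2.74 (gap 0.79). Nppa was also highest in MLPKO 2 (2435 CPM), ahead of MLPKO 5 (1784), MLPKO 1 (955), MLPKO 3 (230) and MLPKO 4 (106), against 146 to 429 CPM in cRADΔ/Δ-MLPKO, and its part in these values was not tested.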

How the results depend on the processing

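Over all genes, edgeR called 369, DESeq2 called 1298, and the fits without 1 mouse called 47 to 826. Among the integrin and laminin genes 3 were lower, with 6 by DESeq2 and 0 to 4 without 1 mouse, and 2 were higher, with 6 by DESeq2 and 0 to 2 without 1 mouse. For the 24 genes given by mouse, 384 values from 16 other fits held 331 with the same direction and side of the threshold, 30 that lost the call, 11 that gained it and 12 that changed sign. The changes of sign came from leaving out 1 mouse, in Lama5 (−0.13 to 0.21), Lamb1 (−0.09 to 0.06) and Lamb2 (−0.04 to 0.04), none of them called, and the cause was not tested. The labels do not say whether mice of the same number in both groups belong together. Deviations from the group mean had correlations of −0.0442 to 0.152 between same-numbered mice. Mice of different numbers were not compared, so these values cannot settle the question. The replicate block called 281 genes and the same 5 integrin and laminin genes. RLE normalization, no filter and keeping Gm and Rik genes called the same 5 as well. Shares in MLPKO moved with the unit: Lama5 from 40.8% per kb of exon to 25.5% per kb of canonical transcript, Lamb2 from 84.8% to 76.8% and to 76.3% in CPM without length, Itga7 from 36.3% to 45.6% per kb of canonical transcript, and Itgb1 from 70.1% to 58.3% and to 67.0% in CPM without length. The canonical length was an alternative chosen after seeing the data. Genes with few counts, such as Itgax (4 to 36), are limited by depth.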
